A study of Rattus norvegicus with 16 samples.

Results

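The matrix metalloproteases (MMPs), the ADAMTS proteases with their ADAMTS-like relatives, and the tissue inhibitors of metalloproteases (TIMPs) were followed in rat kidney cell lines kept at different medium pH. Members were the genes whose symbol starts with Mmp or Timp and a digit, or with Adamts and a digit or the letter l. They numbered 48 of the 32623 genes in the count table, with 21 MMP, 19 ADAMTS, 4 ADAMTS-like and 4 TIMP genes. MMPs are zinc proteases that cut collagens, basement membrane and other proteins outside the cell, and most are made as inactive precursors. ADAMTS proteases trim procollagens, proteoglycans and microfibril proteins, whereas ADAMTS-like proteins lack the protease domain. TIMPs bind the active site of these enzymes, and the balance between proteases and inhibitors is studied in kidney fibrosis, where matrix builds up between the tubules.

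The libraries are poly(A) RNA sequencing from NRK-52E, an epithelial line derived from the rat proximal tubule, and NRK-49F, a line of rat kidney fibroblasts. The lines shared medium without touching each other: NRK-52E grew on porous filter inserts and NRK-49F on the bottom of the same wells. After 24 h without serum, the co-cultures were kept for 48 h at pH 7.4 (control) or pH 6.0 (acidosis), and RNA was taken from each line separately. Every library therefore comes from a co-culture, and the series holds no line cultured alone. Each of the 4 groups, NRK-52E at pH 7.4, NRK-52E at pH 6.0, NRK-49F at pH 7.4 and NRK-49F at pH 6.0, has 4 libraries. The labels do not say whether libraries of a group are separate cultures, so the p-values measure the spread between these samples, which may be technical.

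Libraries carry the numbers N1 to N16, and values of a group are listed in that order. NRK-52E had N1, N2, N5 and N6 at pH 7.4, and N3, N4, N7 and N8 at pH 6.0. NRK-49F had N9, N10, N13 and N14 at pH 7.4, and N11, N12, N15 and N16 at pH 6.0. A second number in the column names, whose meaning is not given, was 21 for N1 to N4, 22 for N5 to N8, 20 for N9 to N12 and 21 for N13 to N16. Both pH values were present under each number within a line, so changes with pH could be recomputed within it.

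Total counts were 18591104, 20612657, 19673671 and 17760185 for NRK-52E at pH 7.4 and 16844811, 21430646, 23856187 and 20967378 at pH 6.0. For NRK-49F they were 19162294, 21470813, 17518187 and 27607214 at pH 7.4 and 23872685, 16201084, 34314389 and 34784862 at pH 6.0. N15 and N16 were the deepest libraries. Levels are given as FPM (fragments per 1e6 counted fragments), scaled with the trimmed mean of M-values over all 16 libraries. They compare libraries for the same gene and not different genes, because gene lengths were not used. A library without a count allows up to 0.0938 to 0.199 FPM, depending on its depth, which is the level of 3 counts. These floors cover counting error only.

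A gene was called when its false discovery rate (FDR) was below 0.01 in both edgeR and DESeq2 with the same sign, after a filter on low counts. SE is the standard error of the log2 fold change. Where the 4 libraries of a group all lay above or below the 4 of the other, an exact permutation test over the 70 splits gave its smallest possible two-sided p, 0.0286. In bulk RNA, fewer cells making a transcript and less transcript per cell cannot be told apart.

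The cell line labels were compared with marker genes. Of 12 epithelial markers, NRK-52E libraries held counts for 7 to 9 at pH 7.4 and for 7 or 8 at pH 6.0. Their summed level in NRK-52E was 509, 472, 418 and 483 FPM at pH 7.4 and 379, 322, 345 and 332 FPM at pH 6.0. In NRK-49F, with 6 to 9 of 12 counted, the sum was 854, 812, 968 and 868 FPM at pH 7.4 and 232, 251, 249 and 273 FPM at pH 6.0. Keratin gene Krt8 was the most abundant in every library, so the sum mostly follows it. Esrp1 was at 0 in all libraries and Slc34a1 at 0 in all of NRK-52E, where Epcam, Krt18 and Cdh16 stayed below 0.2 FPM. Cdh1 averaged 1.62 FPM in NRK-52E at pH 7.4 and 0.315 FPM at pH 6.0, and Krt8 430.4 and 316 FPM.

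Of 12 fibroblast markers, NRK-49F libraries held counts for 10 or 11 and NRK-52E libraries for 8 to 11. They summed in NRK-49F to 15813, 16282, 17533 and 17269.6 FPM at pH 7.4 and 12464, 12166, 12744 and 11089 FPM at pH 6.0. In NRK-52E the sum was 7301, 7163, 6913 and 6863 FPM at pH 7.4 and 3581, 3362, 2884 and 2271 FPM at pH 6.0. The most abundant gene was Col3a1 in NRK-52E, Vim in NRK-49F at pH 7.4 and Col1a1 in NRK-49F at pH 6.0, and Thy1 was at 0 in every library. Pdgfra averaged 392 FPM in NRK-49F and 0.286 FPM in NRK-52E at pH 7.4, whereas Col3a1 averaged 458 and 6221 FPM. Between the lines at pH 7.4, 8 of 10 tested fibroblast markers were called lower in NRK-52E and 1, Col3a1, higher, with a median log2 fold change of −4.56. At pH 6.0 it was 7 of 9 lower and Col3a1 higher, with a median of −5.12. Of all genes tested, 33.3% were called lower and 33.3% higher in NRK-52E at pH 7.4, and 31.3% lower and 28.6% higher at pH 6.0. Of the epithelial markers, 2 of 6 tested were called higher in NRK-52E and 3 lower at pH 7.4, and 1 of 4 higher and none lower at pH 6.0.

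Of 8 leukocyte markers, 2 to 4 had a count in each library, with Ptprc, Adgre1 and S100a9 at 0 throughout. The sum in NRK-49F was 63.1, 73.2, 98.4 and 92.7 FPM at pH 7.4 and 225, 227, 263 and 258 FPM at pH 6.0, nearly all of it Cd68. In NRK-52E it was 3.75, 2.58, 3.32 and 2.67 FPM at pH 7.4, led by Cd68, and 5.87, 7.15, 5.78 and 8.37 FPM at pH 6.0, led by Lyz2. Of 5 endothelial markers in the table, 1 to 3 had a count in each library, and Kdr and Emcn were at 0 throughout. Their sum in NRK-52E was 35.8, 44.8, 43.8 and 42.7 FPM at pH 7.4 and 5.93, 7.51, 7.01 and 8.04 FPM at pH 6.0, led by Tek. In NRK-49F it was 1.20, 0.354, 1.19 and 0.830 FPM at pH 7.4 and 0.753, 0.332, 0.715 and 0.751 FPM at pH 6.0, led by Tek except in N9 and N13, where Cdh5 led. All 4 marker sums move with pH or line, and their part in the results that follow was not tested.

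Of the 48 members, 45 had a count in some library. Mmp27, Adamts18 and Timp4 were at 0 throughout. A group mean of at least 1 FPM was reached by 31 members, of which NRK-52E had 23 and NRK-49F 26. All libraries of NRK-52E were at 0 for 8 members, and all of NRK-49F for 9. After the filter on low counts 24 members were tested for pH in NRK-52E and 28 were tested in NRK-49F, and 16 members were in neither test. A member could pass through the group where it is high alone, so the counts describe the tested members only.

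Which members differ between pH 6.0 and pH 7.4 within each line was the first comparison. In NRK-52E, 17 of the 24 tested members were called (70.8%), against 56.7% of all 13735 genes tested. Higher at pH 6.0 were 3 members, with 28.2% of all genes tested called higher, and lower were 14, with 28.5% of all genes called lower. The median log2 fold change was −1.32 over the tested members and 0.00 over all genes tested. In NRK-49F, 15 of 28 tested members were called (53.6%), against 37.8% of 13339 genes. Here 4 members were higher, with 18.4% of all genes called higher, and 11 were lower, with 19.4% of all genes called lower. The median was −0.42 over the tested members and −0.00 over all genes. Scaling by library totals alone moved the median of all genes in NRK-52E to −0.21 and left 3 members called higher and 15 lower, while NRK-49F then had 4 higher and 10 lower.

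The collagenases cut the triple helix of fibrillar collagens, and only Mmp13 among the 4 collagenase genes exceeded 0.7 FPM in any library. In NRK-49F, Mmp13 (ENSRNOG00000008478, chromosome 8) read 1.66, 1.77, 3.49 and 3.005 FPM at pH 7.4 and 5.84, 7.83, 22.9 and 36.0 FPM at pH 6.0. All libraries at pH 6.0 lay above all at pH 7.4, and at both pH values N13 to N16 exceeded N9 to N12. Mmp13 rose with acidosis (log2 fold change 2.86, SE 0.52, FDR 0.000639 in edgeR and 3.63e-05 in DESeq2), by 1.98 within column number 20 and 3.17 within 21. In NRK-52E, Mmp13 had 1 count in N1 and none in the other 7 libraries. Mmp1, Mmp1b and Mmp8 had no count in NRK-52E, and their NRK-49F group means were at most 0.258 FPM.

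The gelatinases degrade denatured collagen and the type IV collagen of basement membranes. Mmp2 (ENSRNOG00000016695, chromosome 19) read 416, 409, 451 and 519.9 FPM in NRK-49F at pH 7.4 and 879, 836, 1004 and 1059 FPM at pH 6.0. In NRK-52E it read 2.48, 2.50, 2.16 and 1.95 FPM at pH 7.4 and 4.04, 3.46, 5.45 and 5.55 FPM at pH 6.0. In each line all libraries at pH 6.0 lay above all at pH 7.4, and every NRK-49F library lay far above every NRK-52E library. Mmp2 rose in NRK-49F (log2 fold change 1.06, SE 0.11, FDR 1.02e-05 in edgeR and 1.12e-19 in DESeq2). It also rose in NRK-52E (log2 fold change 1.01, SE 0.22, FDR 0.00193 in edgeR and 7.59e-05 in DESeq2). Within column number the NRK-52E change was 0.54 under 21 and 1.40 under 22, neither of them called with 2 libraries a group.

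Mmp9 (ENSRNOG00000017539, chromosome 3), the other gelatinase, moved the opposite way in NRK-49F. It read 43.3, 44.9, 51.2 and 62.8 FPM at pH 7.4 and 20.8, 19.6, 19.9 and 28.6 FPM at pH 6.0. The groups did not overlap, and N16 stood above the other libraries at pH 6.0. Mmp9 fell with acidosis (log2 fold change −1.20, SE 0.15, FDR 4.46e-05 in edgeR and 5.36e-12 in DESeq2). In NRK-52E it was at 0.469, 0.246, 0.207 and 0.381 FPM at pH 7.4 and 0.245, 0.450, 0.246 and 0.564 FPM at pH 6.0. These are 4 to 12 counts a library with overlapping groups, and the filter removed Mmp9 from the test of pH there.

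Stromelysins cut proteoglycans and fibronectin and can activate other MMP precursors. Mmp3 (ENSRNOG00000032626, chromosome 8) read 827, 853, 1370.3 and 1226 FPM in NRK-49F at pH 7.4 and 344, 435, 743 and 1613 FPM at pH 6.0. The groups overlapped: N11, N12 and N15 lay below every library at pH 7.4, and N16 above every one. Mmp3 was not called (log2 fold change −0.47, SE 0.38, FDR 0.324 in edgeR and 0.451 in DESeq2), and without N16 it was called with a log2 fold change of −1.09. Within column number the value was −1.10 under 20, where it was called, and −0.16 under 21. NRK-52E had 1 Mmp3 count, in N6.

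Mmp10 (ENSRNOG00000032832, chromosome 8), the second stromelysin, read 78.1, 72.2, 87.0 and 106 FPM in NRK-49F at pH 7.4 and 34.8, 36.6, 78.0 and 170.4 FPM at pH 6.0. N11 and N12 lay below every library at pH 7.4, N15 lay among them and N16 lay above them all. Mmp10 was not called (log2 fold change −0.11, SE 0.40, FDR 0.822 in edgeR and 0.873 in DESeq2). Its direction turned in single omissions, to 0.14 without N11 and 0.12 without N12. Within column number it was −1.07 under 20, where it was called, and 0.35 under 21. In NRK-52E it had 1 count, in N7. The part of column number, or of the greater depth of N15 and N16, in the spread of Mmp13, Mmp3 and Mmp10 was not tested.

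Mmp13, Mmp3 and Mmp10 lie in a run of 10 neighbouring MMP genes on chromosome 8 of the RefSeq assembly GRCr8, in the order Mmp13, Mmp12, Mmp1b, Mmp3, Mmp1, Mmp10, Mmp8, Mmp27, Mmp20 and Mmp7, with no other protein-coding gene between them. RefSeq promoter sequences, from 250 bases before to 50 after the start, were matched by symbol for 37 of the 48 members. The letters TGANTCA, the core of an AP-1 site, which reads alike on both strands, occur in 7.33% of 33469 rat promoters, and TATAAA, searched on both strands, occurs in 14.2%. TGANTCA was found in 7 matched members, Mmp1, Mmp3, Mmp7, Mmp10, Mmp12, Mmp13 and Mmp20, all of them in the run on chromosome 8. The unmatched members, which were not searched, are Mmp2, Mmp9, Mmp14, Mmp16, Mmp17, Mmp19, Adamts5, Adamts8, Adamts15, Adamts16 and Adamts19, none of them in the run. TATAAA was found in 13 matched members. A match is a description of the letters and not a binding site.

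The 100 bases before the start are shown for the 3 genes of the run with more than 10 FPM in a group mean, because the matches to TGANTCA among the 37 searched members lie in this run. All are on the plus strand of GRCr8, and capitals mark TGANTCA and TATAAA.
Mmp13, chr8:12782729-12782828: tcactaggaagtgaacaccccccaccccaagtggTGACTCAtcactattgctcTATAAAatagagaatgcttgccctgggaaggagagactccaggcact
Mmp3, chr8:12925181-12925280: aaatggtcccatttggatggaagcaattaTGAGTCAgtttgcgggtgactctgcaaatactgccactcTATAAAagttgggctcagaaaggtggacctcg
Mmp10, chr8:12974607-12974706: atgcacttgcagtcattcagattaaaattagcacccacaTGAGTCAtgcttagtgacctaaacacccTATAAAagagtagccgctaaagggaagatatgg
Counted from its first letter to the start, TGANTCA lies 66 bases away in Mmp13, 71 in Mmp3 and 61 in Mmp10. TATAAA lies 47, 32 and 33 bases away in the same order.

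The membrane-type MMPs are anchored at the cell surface. Mmp14 (ENSRNOG00000010947, chromosome 15), which activates the Mmp2 precursor together with TIMP2, read 152, 159.7, 138 and 138 FPM in NRK-52E at pH 7.4 and 133, 152, 133 and 80.0 FPM at pH 6.0. In NRK-49F it read 262, 244, 205 and 385 FPM at pH 7.4 and 205, 161, 234 and 235 FPM at pH 6.0. The pH groups overlapped in both lines, with N8 low in NRK-52E and N14 high in NRK-49F. Mmp14 was not called in NRK-52E (log2 fold change −0.26, SE 0.16, FDR 0.171 in edgeR and 0.264 in DESeq2). It was not called in NRK-49F either (log2 fold change −0.40, SE 0.17, FDR 0.0649 in edgeR and 0.0559 in DESeq2), except within column number 20, at −0.46.

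Mmp15 (ENSRNOG00000012622, chromosome 19), a membrane-type MMP with a transmembrane domain, read 6.00, 8.77, 8.21 and 6.00 FPM in NRK-52E at pH 7.4 and 45.0, 42.9, 31.1 and 17.4 FPM at pH 6.0. All libraries at pH 6.0 were higher, and N8 was the lowest of them. Mmp15 rose in NRK-52E (log2 fold change 2.21, SE 0.28, FDR 4.44e-05 in edgeR and 5.23e-14 in DESeq2), with 1.74 and no call within column number 22. Levels in NRK-49F were 0.686, 0.455, 0.0658 and 0.356 FPM at pH 7.4 and 1.46, 0.928, 0.715 and 0.532 FPM at pH 6.0, on 1 to 12 counts a library at pH 7.4, with overlapping groups. It was not called there (log2 fold change 1.15, SE 0.51, FDR 0.0755 in edgeR and 0.0828 in DESeq2).

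Mmp16 (ENSRNOG00000005708, chromosome 5), also of the transmembrane kind, read 29.6, 28.1, 27.7 and 32.2 FPM in NRK-49F at pH 7.4 and 3.90, 3.45, 2.96 and 4.07 FPM at pH 6.0. In NRK-52E it read 1.69, 2.95, 1.82 and 2.43 FPM at pH 7.4 and 0.245, 0.135, 0.0820 and 0.188 FPM at pH 6.0, where each library had 2 to 4 counts. All libraries at pH 6.0 lay below all at pH 7.4 in both lines. Mmp16 fell in NRK-49F (log2 fold change −3.05, SE 0.14, FDR 3.93e-08 in edgeR and 1.78e-86 in DESeq2). It fell in NRK-52E as well (log2 fold change −3.81, SE 0.38, FDR 7.97e-06 in edgeR and 5.23e-13 in DESeq2).

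Mmp24 (ENSRNOG00000047028, chromosome 3), the last transmembrane member of the group, read 34.0, 29.2, 26.0 and 29.5 FPM in NRK-52E at pH 7.4 and 4.04, 4.90, 4.26 and 10.53 FPM at pH 6.0. For NRK-49F the values were 32.9, 31.6, 31.2 and 33.0 FPM at pH 7.4 and 13.7, 14.1, 14.9 and 10.4 FPM at pH 6.0. The pH groups were apart in both lines, and N8 stood above the other NRK-52E libraries at pH 6.0. Mmp24 fell in NRK-52E (log2 fold change −2.33, SE 0.29, FDR 3.96e-05 in edgeR and 2.41e-15 in DESeq2), with −2.86 within column number 21 and −1.92 within 22. The call was lost within 22, with 2 libraries a group. It fell in NRK-49F as well (log2 fold change −1.30, SE 0.13, FDR 5.7e-06 in edgeR and 1.1e-19 in DESeq2).

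Mmp19 (ENSRNOG00000006778, chromosome 7) is a secreted protease of basement membrane proteins. It read 10.6, 10.4, 9.62 and 8.76 FPM in NRK-52E at pH 7.4 and 1.71, 2.07, 2.30 and 2.35 FPM at pH 6.0, with no overlap. There Mmp19 fell (log2 fold change −2.23, SE 0.17, FDR 1.33e-06 in edgeR and 3.27e-33 in DESeq2). NRK-49F read 190.1, 179, 173 and 222 FPM at pH 7.4 and 156, 146, 204 and 249.9 FPM at pH 6.0. N11 and N12 were below, and N16 above, all libraries at pH 7.4, and Mmp19 was not called (log2 fold change −0.03, SE 0.15, FDR 0.871 in edgeR and 0.915 in DESeq2). Its sign turned with scaling by library totals alone (0.01) and in single omissions, to 0.05 without N11, 0.07 without N12 and 0.04 without N14.

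Mmp28 (ENSRNOG00000047940, chromosome 10), or epilysin, is a secreted MMP known from epithelia. It read 49.4, 61.5, 62.8 and 58.1 FPM in NRK-52E at pH 7.4 and 17.4, 29.4, 23.6 and 12.8 FPM at pH 6.0, every library at pH 6.0 being lower and N8 the lowest. Mmp28 fell in NRK-52E (log2 fold change −1.50, SE 0.21, FDR 9.44e-05 in edgeR and 2.18e-10 in DESeq2). NRK-49F libraries read 7.72, 8.14, 4.61 and 12.492 FPM at pH 7.4 and 6.42, 3.85, 4.19 and 6.76 FPM at pH 6.0. These groups overlapped, and Mmp28 was not called (log2 fold change −0.65, SE 0.28, FDR 0.0703 in edgeR and 0.0519 in DESeq2).

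The remaining 10 MMP genes had group means of at most 0.887 FPM, reached by Mmp23 in NRK-52E at pH 6.0. Mmp27 was at 0 and the elastase Mmp12 was counted in NRK-49F alone, at 0.325 FPM on average at pH 7.4 and 0.703 FPM at pH 6.0, with overlapping groups. The Mmp12 mean at pH 7.4 rests largely on N13 at 0.790 FPM, above 0.171, 0.101 and 0.237 FPM in N9, N10 and N14. The glycolipid-anchored Mmp17 ranged over group means of 0.330 to 0.623 FPM. The highest of these, in NRK-49F at pH 6.0, rests largely on N16 at 1.53 FPM, above 0.177, 0.199 and 0.585 FPM in N11, N12 and N15. Mmp7, Mmp8, Mmp20 and Mmp21 had 1 to 6 counts over all 16 libraries. None of the 10 was called in either pH comparison, and Mmp23 in NRK-52E was the only test among them. Mmp11 and Mmp25 were not analysed here.

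**Figure D1:**
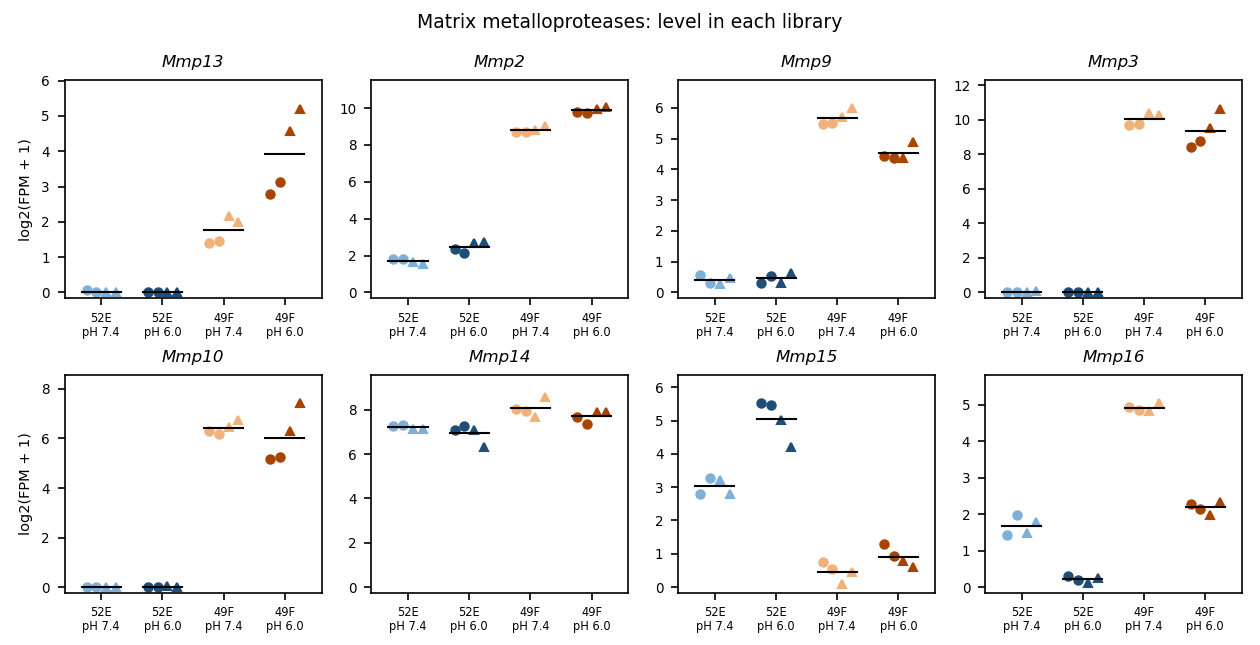
Level of 8 MMP genes in each library, as log2 of FPM plus 1 (vertical axis, its range set for each gene), in the 4 groups of line and pH (horizontal axis). Circles are libraries with the lower column number of their line and triangles those with the higher, bars are the mean of the 4 plotted values, and in NRK-49F at pH 6.0 Mmp13, Mmp3 and Mmp10 are higher in both triangles than in both circles.

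Among ADAMTS proteases that cut proteoglycans, Adamts1 (ENSRNOG00000001607, chromosome 11) acts on versican and aggrecan. It read 59.0, 65.3, 65.4 and 57.5 FPM in NRK-52E at pH 7.4 and 16.1, 19.3, 16.8 and 12.8 FPM at pH 6.0. The 4 libraries at pH 6.0 were all lower, and Adamts1 fell in NRK-52E (log2 fold change −1.95, SE 0.13, FDR 4.55e-07 in edgeR and 1.81e-43 in DESeq2). The NRK-49F values were 106, 105, 96.6 and 149 FPM at pH 7.4 and 65.4, 81.4, 188 and 209 FPM at pH 6.0. N11 and N12 lay below and N15 and N16 above every library at pH 7.4. Adamts1 was not called in NRK-49F (log2 fold change 0.23, SE 0.31, FDR 0.545 in edgeR and 0.657 in DESeq2). Within column number it was −0.53 under 20 (edgeR FDR 0.00234) and 0.67 under 21, and it turned to −0.05 without N16.

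Adamts4 (ENSRNOG00000003538, chromosome 13), an aggrecanase, read 6.69, 5.66, 5.60 and 6.84 FPM in NRK-49F at pH 7.4 and 8.90, 8.56, 9.16 and 11.2 FPM at pH 6.0. All libraries at pH 6.0 were higher, by a small margin, and Adamts4 rose (log2 fold change 0.60, SE 0.16, FDR 0.0066 in edgeR and 0.00105 in DESeq2). The call ended in most single omissions, at 0.62 without N9, 0.56 without N10, 0.63 without N11, 0.64 without N12, 0.56 without N13, 0.63 without N15 and 0.51 without N16. Adamts4 also lost it in 1 fit to all libraries (0.60), and within column number at 0.51 under 20 and 0.69 under 21. In NRK-52E it read 0.843, 0.983, 1.78 and 1.43 FPM at pH 7.4 and 0.550, 0.270, 0.738 and 0.517 FPM at pH 6.0, without overlap. It missed the threshold of edgeR there (log2 fold change −1.29, SE 0.38, FDR 0.0102 in edgeR and 0.00824 in DESeq2) and was called at −1.45 without N1. It was also called with column number as a covariate (−1.30), in 1 fit to all libraries (−1.30), with library totals alone (−1.50) and with DESeq2 size factors (−1.29).

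Adamts9 (ENSRNOG00000023257, chromosome 4), which also cuts versican and aggrecan, had no count in NRK-52E. In NRK-49F it read 125, 125, 99.6 and 108 FPM at pH 7.4 and 13.3, 11.7, 15.9 and 26.9 FPM at pH 6.0. The groups were far apart and N16 was the highest at pH 6.0. Adamts9 fell (log2 fold change −2.76, SE 0.22, FDR 1.28e-06 in edgeR and 1.4e-37 in DESeq2), with −3.31 within column number 20 and −2.30 within 21.

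The procollagen N-propeptidases remove the amino propeptide before collagen fibrils form. Adamts2 (ENSRNOG00000061484, chromosome 10) read 83.2, 84.6, 83.2 and 75.3 FPM in NRK-52E at pH 7.4 and 27.5, 26.3, 20.04 and 22.1 FPM at pH 6.0. Levels in NRK-49F were 48.6, 46.5, 50.6 and 64.0 FPM at pH 7.4 and 24.8, 23.8, 20.3 and 18.0 FPM at pH 6.0. In both lines all libraries at pH 6.0 were below all at pH 7.4. Adamts2 fell in NRK-52E (log2 fold change −1.79, SE 0.12, FDR 4.95e-07 in edgeR and 6.82e-41 in DESeq2). It fell in NRK-49F too (log2 fold change −1.29, SE 0.14, FDR 1.21e-05 in edgeR and 7.55e-16 in DESeq2).

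Adamts3 (ENSRNOG00000027463, chromosome 14), a propeptidase that also processes the growth factor VEGF-C, had no count in NRK-49F. It read 7.92, 12.9, 14.1 and 12.47 FPM in NRK-52E at pH 7.4 and 2.94, 6.29, 4.96 and 3.53 FPM at pH 6.0. The groups did not overlap, although N1 was close to the highest library at pH 6.0. Adamts3 fell (log2 fold change −1.44, SE 0.26, FDR 0.000548 in edgeR and 2.61e-07 in DESeq2), with −1.21 and no call within column number 21. The third propeptidase, Adamts14, averaged 9.80 FPM in NRK-49F at pH 7.4 and 9.69 FPM at pH 6.0 and was not called. It is named after its values were seen.

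Adamts7 and Adamts12 share the cartilage protein COMP as a substrate. Adamts7 (ENSRNOG00000028036, chromosome 8) read 8.67, 11.9, 9.33 and 8.62 FPM in NRK-52E at pH 7.4 and 3.61, 2.56, 1.97 and 1.41 FPM at pH 6.0. For NRK-49F the values were 47.6, 44.0, 36.9 and 50.8 FPM at pH 7.4 and 28.8, 23.9, 29.0 and 35.3 FPM at pH 6.0. Libraries at pH 6.0 were lower in both lines, in NRK-49F with N16 just under N13. Adamts7 fell in NRK-52E (log2 fold change −2.05, SE 0.27, FDR 5.69e-05 in edgeR and 2.36e-13 in DESeq2). In NRK-49F it also fell (log2 fold change −0.63, SE 0.13, FDR 0.0015 in edgeR and 6.66e-05 in DESeq2), and within column number 21 the value was −0.47 and not called.

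Adamts12 (ENSRNOG00000018865, chromosome 2) read 5.89, 8.49, 4.61 and 5.10 FPM in NRK-49F at pH 7.4 and 22.9, 27.9, 21.998 and 21.8 FPM at pH 6.0. Every library at pH 6.0 was far above every library at pH 7.4. Adamts12 rose (log2 fold change 1.95, SE 0.19, FDR 6.59e-06 in edgeR and 2.37e-22 in DESeq2), by 1.81 within column number 20 and 2.15 within 21. In NRK-52E its levels were 0.141, 0.451, 0.622 and 0.286 FPM at pH 7.4 and 0.122, 0.270, 0.123 and 0.235 FPM at pH 6.0, with overlap, and the filter removed it from the test.

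Adamts10 and Adamts17 act on fibrillin microfibrils and are mutated in related human syndromes with short stature and lens defects. Adamts10 (ENSRNOG00000008857, chromosome 7) read 427, 433, 429 and 397 FPM in NRK-52E at pH 7.4 and 163, 158, 169 and 184 FPM at pH 6.0. The 4 libraries at pH 6.0 were all lower, and Adamts10 fell (log2 fold change −1.34, SE 0.09, FDR 4.49e-07 in edgeR and 3.98e-53 in DESeq2). NRK-49F libraries read 97.1, 93.4, 73.9 and 99.0 FPM at pH 7.4 and 91.3, 66.1, 81.1 and 62.9 FPM at pH 6.0. These groups overlapped, and it was not called (log2 fold change −0.28, SE 0.13, FDR 0.0857 in edgeR and 0.109 in DESeq2).

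Adamts17 (ENSRNOG00000037080, chromosome 1) read 11.2, 15.4, 16.1 and 14.7 FPM in NRK-52E at pH 7.4 and 0.428, 0.539, 0.574 and 0.517 FPM at pH 6.0. At pH 6.0 each library held 7 to 14 counts and lay far below every library at pH 7.4. Adamts17 fell (log2 fold change −4.80, SE 0.21, FDR 6.95e-08 in edgeR and 5.94e-64 in DESeq2), the most negative log2 fold change of any called member in either line. In NRK-49F it was at 0.743, 0.202, 0.527 and 0.356 FPM at pH 7.4 and 0.133, 0.464, 0.162 and 0.125 FPM at pH 6.0. These groups overlapped, and the filter removed Adamts17 from the test of pH.

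The remaining 10 ADAMTS genes include Adamts18 at 0 and Adamts14, given above. Of the others, Adamts5, Adamts6 and Adamts13 had a group mean above 1 FPM, and the rest had group means of at most 0.768 FPM. Adamts5 and Adamts6 were the pH calls outside the genes chosen by rule, and are named after their values were seen. The aggrecanase Adamts5 fell in NRK-49F, from a mean of 1.22 to 0.171 FPM. The mean at pH 6.0 rests on N11, with 14 of the 16 counts, while N15 had 2 and N12 and N16 had none. Adamts6 fell in NRK-52E, from 1.35 to 0.359 FPM, and was not called in NRK-49F at 1.33 and 2.33 FPM.

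ADAMTS-like proteins bind microfibrils without cutting. Adamtsl2 (ENSRNOG00000027742, chromosome 3), whose protein binds fibrillin and the latent TGF-β binding protein LTBP1, read 0.187, 0.205, 0.0829 and 0.143 FPM in NRK-52E at pH 7.4, on 2 to 5 counts, and 7.09, 6.518, 6.48 and 3.95 FPM at pH 6.0. The NRK-49F values were 7.49, 8.89, 10.9 and 9.25 FPM at pH 7.4 and 2.97, 2.12, 2.66 and 5.41 FPM at pH 6.0. The groups were apart in both lines and in opposite order. Adamtsl2 rose in NRK-52E (log2 fold change 5.21, SE 0.33, FDR 3.99e-07 in edgeR and 1.7e-28 in DESeq2). It fell in NRK-49F (log2 fold change −1.47, SE 0.27, FDR 0.000626 in edgeR and 2.97e-07 in DESeq2), with −1.33 and no call within column number 21, with 2 libraries a group.

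Adamtsl3 (ENSRNOG00000010840, chromosome 1), a matrix protein of the same kind, read 41.1, 51.1, 51.9 and 47.3 FPM in NRK-52E at pH 7.4 and 3.36, 4.59, 3.32 and 6.54 FPM at pH 6.0. Every library at pH 6.0 was far lower, and Adamtsl3 fell (log2 fold change −3.44, SE 0.22, FDR 4.35e-07 in edgeR and 1.69e-56 in DESeq2). In NRK-49F it was at 0.0572, 0.152, 0.132 and 0.0395 FPM at pH 7.4 and 0.177, 0.0663, 0.195 and 0.156 FPM at pH 6.0. These are 1 to 6 counts a library, with overlapping groups and no test.

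Adamtsl4 (ENSRNOG00000049385, chromosome 2), which is linked to displaced lenses, read 108, 102, 88.8 and 113 FPM in NRK-49F at pH 7.4 and 64.2, 56.7, 55.2 and 49.4 FPM at pH 6.0. All libraries at pH 6.0 were lower, and Adamtsl4 fell (log2 fold change −0.88, SE 0.11, FDR 3.09e-05 in edgeR and 8.15e-12 in DESeq2). In NRK-52E it read 45.5, 46.4, 47.1 and 39.3 FPM at pH 7.4 and 43.4, 44.6, 41.4 and 44.5 FPM at pH 6.0, with overlap and no call (log2 fold change −0.06, SE 0.09, FDR 0.614 in edgeR and 0.713 in DESeq2).

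Adamtsl5 (ENSRNOG00000033787, chromosome 7), a further ADAMTS-like gene, read 91.2, 73.9, 84.3 and 83.6 FPM in NRK-52E at pH 7.4 and 70.9, 83.1, 75.2 and 57.5 FPM at pH 6.0. In NRK-49F it read 51.2, 49.6, 41.1 and 66.3 FPM at pH 7.4 and 53.7, 39.1, 57.4 and 61.9 FPM at pH 6.0. The pH groups overlapped in both lines. It was not called in NRK-52E (log2 fold change −0.24, SE 0.11, FDR 0.0783 in edgeR and 0.129 in DESeq2). Nor was it called in NRK-49F (log2 fold change 0.01, SE 0.15, FDR 0.952 in edgeR and 0.932 in DESeq2), where the sign turned in single omissions, to −0.01 without N9, −0.01 without N10, −0.08 without N13, −0.01 without N15 and −0.06 without N16. Adamtsl1 and Adamtsl6 were not analysed here.

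The inhibitors come last. Timp1 (ENSRNOG00000010208, chromosome X), which inhibits most soluble MMPs, read 168, 172, 238 and 189 FPM in NRK-49F at pH 7.4 and 73.9, 93.0, 84.3 and 108 FPM at pH 6.0. The 4 libraries at pH 6.0 were all lower, and Timp1 fell (log2 fold change −1.11, SE 0.14, FDR 4.38e-05 in edgeR and 2.5e-12 in DESeq2). In NRK-52E it read 112, 79.9, 70.3 and 84.9 FPM at pH 7.4 and 71.1, 56.5, 63.9 and 87.5 FPM at pH 6.0. There the groups overlapped, with N8 above all but N1 of the libraries at pH 7.4, and Timp1 was not called (log2 fold change −0.33, SE 0.17, FDR 0.101 in edgeR and 0.131 in DESeq2).

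Timp2 (ENSRNOG00000003148, chromosome 10) inhibits membrane-type MMPs and takes part in activating the Mmp2 precursor. It read 1026, 986, 941 and 1004 FPM in NRK-52E at pH 7.4 and 680.0, 552, 589.5 and 798 FPM at pH 6.0. Levels in NRK-49F were 2493, 2483, 2710.4 and 2597 FPM at pH 7.4 and 1409, 1514, 1632 and 1549 FPM at pH 6.0. In each line all libraries at pH 6.0 lay below all at pH 7.4. Timp2 fell in NRK-52E (log2 fold change −0.61, SE 0.13, FDR 0.00137 in edgeR and 2.25e-05 in DESeq2). It fell in NRK-49F (log2 fold change −0.77, SE 0.09, FDR 3.34e-05 in edgeR and 1.91e-19 in DESeq2). Its call ended within column number 22 in NRK-52E, at −0.50, and within 21 in NRK-49F, at −0.76, with 2 libraries a group.

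Timp3 (ENSRNOG00000004303, chromosome 7), which binds to the matrix and inhibits ADAMTS as well as MMP enzymes, read 58.5, 70.8, 80.4 and 74.0 FPM in NRK-52E at pH 7.4 and 34.4, 49.1, 46.7 and 32.9 FPM at pH 6.0. No library at pH 6.0 reached the lowest at pH 7.4, and Timp3 fell (log2 fold change −0.82, SE 0.15, FDR 0.000544 in edgeR and 3.15e-06 in DESeq2). Within column number the value was −0.67 under 21 and −0.98 under 22, neither called with 2 libraries a group. For NRK-49F the values were 186, 186, 115 and 158 FPM at pH 7.4 and 87.1, 91.1, 117 and 188 FPM at pH 6.0. N11 and N12 were below all libraries at pH 7.4 and N16 above them, and Timp3 was not called (log2 fold change −0.43, SE 0.22, FDR 0.122 in edgeR and 0.1 in DESeq2). It was called at −0.72 without N16, and within column number it was −1.06 under 20, where it was called, and 0.14 under 21.

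**Figure D2:**
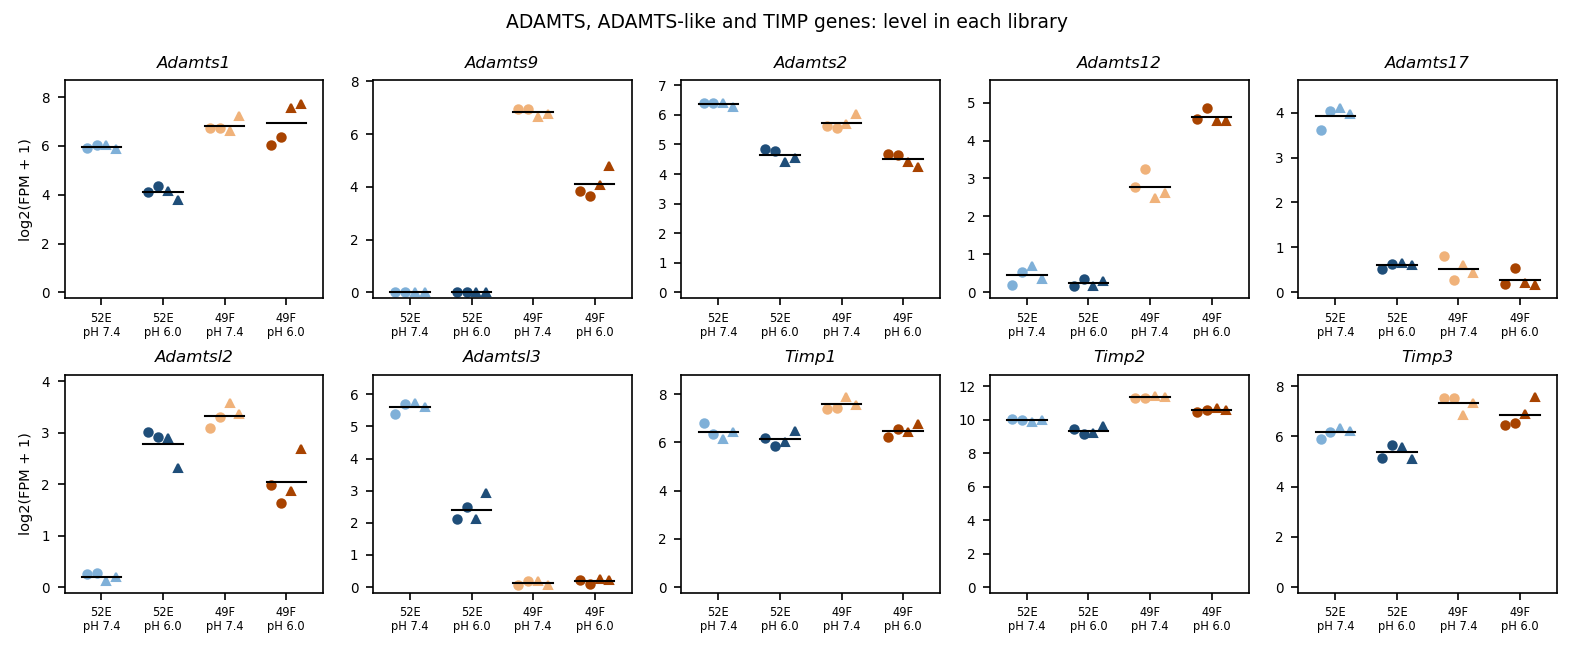
Level of 10 ADAMTS, ADAMTS-like and TIMP genes in each library, as log2 of FPM plus 1 (vertical axis, its range set for each gene), in the 4 groups of line and pH (horizontal axis). Circles are libraries with the lower column number of their line and triangles those with the higher, bars are the mean of the 4 plotted values, and Adamtsl2 is higher at pH 6.0 in NRK-52E and lower at pH 6.0 in NRK-49F.

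Both pH comparisons use separate libraries, but libraries of the lines may come from the same co-cultures, because the lines shared wells. The labels do not pair them, and all fits treated them as unpaired. Of the 20 members tested in both lines, 7 were called in each, which is 7 of the 17 called in NRK-52E and 7 of the 15 called in NRK-49F. Mmp2 was higher at pH 6.0 in both lines, and Mmp16, Mmp24, Adamts2, Adamts7 and Timp2 were lower in both. Adamtsl2 moved in opposite directions. Of the other 13 tested in both, 7 were called in NRK-52E alone, 3 in NRK-49F alone and 3 in neither. Over the 12470 genes tested in both lines, 23.8% were called in each, 32.5% in NRK-52E alone, 13.6% in NRK-49F alone and 30.1% in neither. Genes that fell in both lines were 1248 of these and 5 of the 20 members, those that rose in both 1180 and 1, and those with opposite calls 534 and 1. Another 3 members called in NRK-52E and 5 called in NRK-49F were tested in that line only. A call in a single line does not show that the lines differ, and the difference was tested as an interaction.

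**Figure D3:**
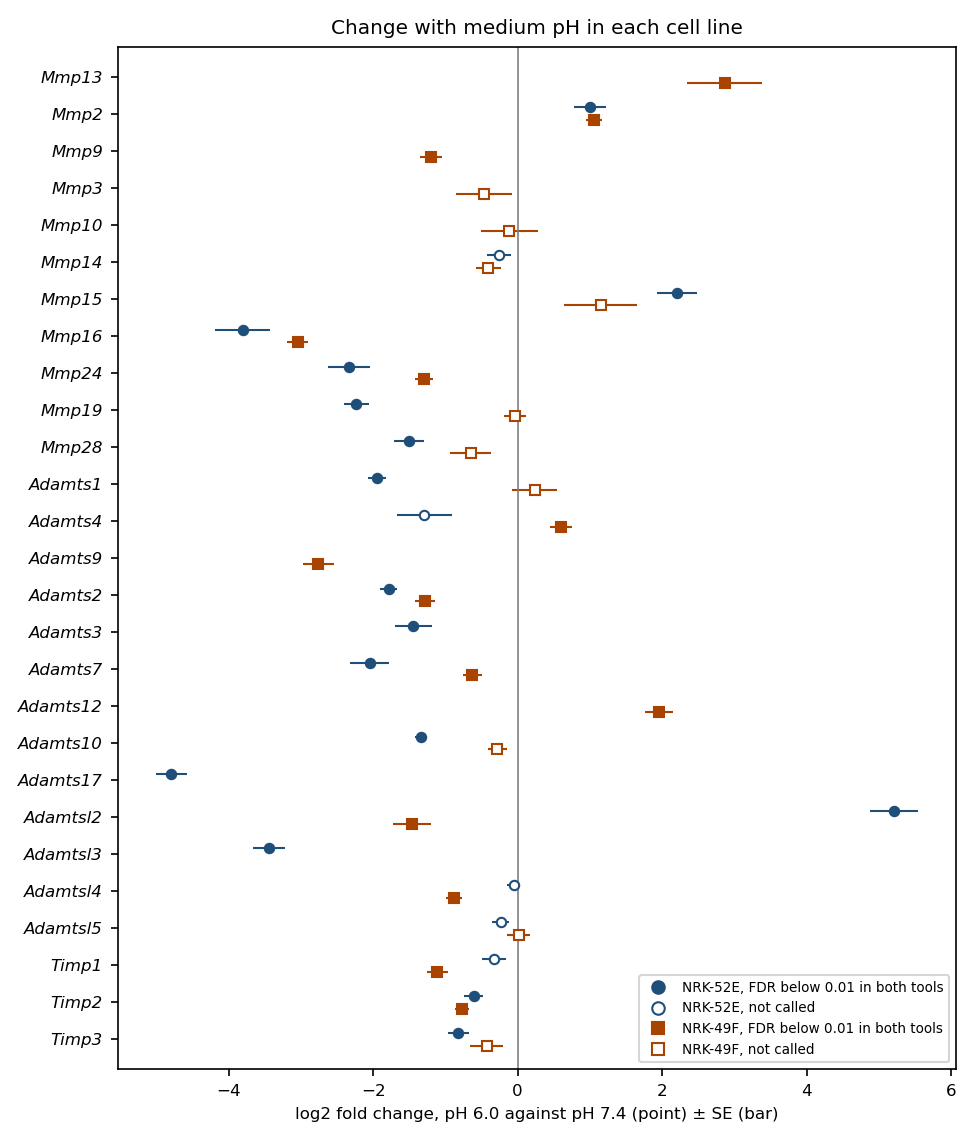
Log2 fold change of pH 6.0 against pH 7.4 (horizontal axis, bars are 1 SE) for the genes described in each library (vertical axis), with circles for NRK-52E and squares for NRK-49F. Filled symbols are called and open symbols are not, a missing symbol means that the filter removed the gene, and values run from −4.80 for Adamts17 to 5.21 for Adamtsl2, both in NRK-52E.

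The interaction, the pH effect in NRK-52E minus that in NRK-49F from a fit to all 16 libraries, was called by edgeR alone at an FDR below 0.01. Of 34 tested members 16 were called (47.1%), against 37.0% of 14679 genes tested. The 5 that were more positive in NRK-52E compare with 19.4% of all genes, and the 11 that were more negative with 17.6%. The median interaction was −0.64 over the tested members and −0.01 over all genes. With library totals alone the median of all genes became −0.25, and 33.7% of the called genes were more positive in NRK-52E in place of 52.3%. The members then split into 3 and 12. With 1 library left out, 11 to 15 members were called, 2 to 5 of them more positive and 9 to 11 more negative, and the 2 were reached without N2, N3, N10, N14 or N15.

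Adamtsl2, rising in one line and falling in the other, had the largest interaction of the genes described, 6.67 (SE 0.46, edgeR FDR 6.24e-09). Adamtsl3 and Adamts17, which fell in NRK-52E and had few counts in NRK-49F, gave −4.21 (SE 0.63, edgeR FDR 2.63e-05) and −3.63 (SE 0.58, edgeR FDR 5.12e-05). Adamts12 gave −2.98 (SE 0.51, edgeR FDR 0.000112), on few counts in NRK-52E. For these 3 genes, and for Mmp9, pH was not tested in the line with few counts. Mmp19, which fell in NRK-52E, gave −2.21 (SE 0.23, edgeR FDR 4.16e-07), and Adamts1, with the same pattern, gave −2.19 (SE 0.39, edgeR FDR 0.000143). For Adamts4 the interaction was −1.90 (SE 0.37, edgeR FDR 0.000396), with higher levels at pH 6.0 in NRK-49F and lower ones in NRK-52E. Adamts7, lower in both lines, gave −1.44 (SE 0.29, edgeR FDR 0.000451). Adamts10 gave −1.07 (SE 0.17, edgeR FDR 3.86e-05), whereas Adamtsl4, which fell in NRK-49F, gave 0.82 (SE 0.14, edgeR FDR 0.000133).

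The interactions of Mmp9, Mmp24 and Timp1 lay close to the threshold. Mmp9 had 1.41 (SE 0.42, edgeR FDR 0.00974) with few counts in NRK-52E, and its call ended at 1.29 without N2, 1.42 without N3, 1.31 without N4, 1.23 without N5, 1.48 without N6, 1.15 without N8, 1.45 without N10, 1.37 without N11, 1.35 without N12, 1.40 without N13, 1.28 without N14 and 1.35 without N15, and with library totals alone at 1.17. Mmp24 had −1.05 (SE 0.31, edgeR FDR 0.00924), and its call ended at −0.99 without N1, −1.06 without N2, −1.02 without N3, −0.96 without N4, −1.12 without N5, −1.06 without N6, −0.91 without N7, −1.07 without N9, −1.05 without N10, −1.04 without N11, −1.03 without N12, −1.04 without N13, −1.07 without N14 and −0.997 without N15, and with column number as a covariate at −1.08. Timp1 had 0.76 (SE 0.23, edgeR FDR 0.00955), and its call ended at 0.72 without N2, 0.64 without N3, 0.67 without N5, 0.75 without N6, 0.81 without N7, 0.63 without N8, 0.81 without N10, 0.68 without N11, 0.78 without N12, 0.64 without N13, 0.77 without N14 and 0.73 without N15. Timp1 lost it as well with library totals alone (0.52), with DESeq2 size factors (0.75) and with column number as a covariate (0.76).

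Among members called in both lines, no interaction was called for Mmp2, −0.06 (SE 0.21, edgeR FDR 0.838), for Mmp16, −0.78 (SE 0.37, edgeR FDR 0.0891), for Adamts2, −0.51 (SE 0.18, edgeR FDR 0.0279), or for Timp2, 0.14 (SE 0.15, edgeR FDR 0.458). Adamts2 was called at −0.70 without N3 and −0.62 without N14 and at −0.75 with library totals alone, and the sign of Mmp2 turned at 0.06 without N4. Mmp14 gave 0.14 (SE 0.26, edgeR FDR 0.697), which turned at −0.01 without N3 and −0.08 without N14. With library totals alone the sign also turned for Mmp14, to −0.09, and for Timp2, to −0.10. Mmp15, Mmp28 and Timp3 were called for pH in NRK-52E alone. Their interactions, 1.07, −0.86 and −0.40 in that order, were not called.

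Which members differ between the lines at the same pH was the last comparison, given as NRK-52E against NRK-49F. It shares its libraries with the pH comparisons. At pH 7.4, 28 of 32 tested members were called (87.5%), against 66.6% of 14026 genes. Of these, 8 were higher in NRK-52E, with 33.3% of all genes called higher, and 20 were lower, with 33.3% of all genes called lower. At pH 6.0, 25 of 30 were called (83.3%), against 59.8% of 13796 genes, with 6 members and 28.6% of all genes higher in NRK-52E, and 19 members and 31.3% of all genes lower. The median at pH 7.4 was −1.11 over the tested members and 0.03 over all genes, and at pH 6.0 it was −1.41 and −0.03. Genes at 0 in a line stayed on the same side of the member median when placed at their bound. Both member medians could therefore not move. Library totals alone moved the median of all genes to 0.34 at pH 7.4 and 0.12 at pH 6.0.

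For some proteases, all libraries of 1 line at a given pH had no count. Adamts9 was at least 862-fold lower in NRK-52E at pH 7.4 and at least 116-fold lower at pH 6.0, with NRK-52E set to the level of 3 counts in each library. Mmp10 was at least 646-fold lower in NRK-52E at pH 7.4. At pH 6.0, Mmp3 was at least 5384-fold and Mmp13 at least 125-fold lower in NRK-52E, and the bound of Mmp3 was 3486-fold without N16. Where NRK-52E had a single count of these genes no fold is given. In the other direction Adamts3 was at least 74.3-fold higher in NRK-52E at pH 7.4 and at least 33.9-fold higher at pH 6.0.

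Of the genes counted in both lines, Mmp2 was lower in NRK-52E at pH 7.4 (log2 fold change −7.54, SE 0.13, edgeR FDR 2.97e-12) and at pH 6.0 (−7.68, SE 0.20, edgeR FDR 2.57e-11). Mmp9 differed by −7.20 (SE 0.22) and −5.87 (SE 0.29) in that order, and Mmp19 by −4.19 (SE 0.11) and −6.49 (SE 0.22). Adamts12 differed by −3.87 (SE 0.35) at pH 7.4 and −6.94 (SE 0.27) at pH 6.0. All of these were called, and no NRK-52E library reached the lowest NRK-49F library at the same pH. Mmp9 and Adamts12 had few counts in NRK-52E, so the sizes of their differences are imprecise. Timp2 was lower in NRK-52E, with −1.30 (SE 0.08) at pH 7.4 and −1.23 (SE 0.14) at pH 6.0.

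Higher in NRK-52E at both pH values were Mmp15, by 4.25 (SE 0.35) at pH 7.4 and 5.25 (SE 0.38) at pH 6.0, and Mmp28, by 2.87 (SE 0.23) and 1.94 (SE 0.28). Adamts10 differed by 2.30 (SE 0.10) at pH 7.4 and 1.15 (SE 0.13) at pH 6.0. Adamtsl3 differed by 9.04 (SE 0.22) and 4.76 (SE 0.40) in the same order. Adamts17 was higher in NRK-52E at pH 7.4, by 5.09 (SE 0.28), and too low in both lines for the test at pH 6.0. Counts in NRK-49F were few for Adamtsl3 and Adamts17, and for Mmp15 at pH 7.4, so the sizes of these differences are imprecise. Timp1 was lower in NRK-52E at pH 7.4 (−1.06, SE 0.15) and not called at pH 6.0 (−0.38, SE 0.16).

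Some calls between the lines changed without single libraries, with other scaling or with column number as a covariate. The lines share only column number 21, so with that covariate the line difference rests on 2 libraries a group. Mmp14 was lower in NRK-52E, with −0.82 (SE 0.16) at pH 7.4 and −0.76 (SE 0.18) at pH 6.0, and library totals alone gave −0.52 and −0.61 with no call. With column number as a covariate the calls were lost too, at −0.85 and −0.72. Mmp24 was not called at pH 7.4 (−0.04, SE 0.09), with a turned sign of 0.01 without N5 and of 0.27 with library totals alone. For Adamtsl5 at pH 7.4 (0.76, SE 0.13) the call ended with column number as a covariate (0.68). At pH 6.0 Mmp24 was lower in NRK-52E (−1.17, SE 0.30), and the call ended at −1.01 without N3, −1.06 without N4, −1.01 without N7 and −1.12 without N15. Adamtsl4 at pH 6.0 (−0.39, SE 0.11) lost its call at −0.37 without N3, −0.38 without N4, −0.34 without N7, −0.33 without N11, −0.40 without N12 and −0.41 without N15. Its call also ended with library totals alone (−0.24), with column number as a covariate (−0.25), with DESeq2 size factors (−0.34) and with no filter (−0.39). Gains of a call at pH 6.0 were seen for Adamtsl2 at 0.98 without N8 and 1.18 without N16, for Adamtsl5 at 0.50 without N8 and for Timp1 at −0.51 without N8.

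Other genes of the pathway were taken from lists. Where calls of a list are counted, they stand beside the share called among all genes given above. Plasminogen activation turns a blood protease into plasmin, which activates several MMP precursors. The activator receptor Plaur rose in NRK-52E from 34.9 to 57.1 FPM (log2 fold change 0.69, SE 0.12, edgeR FDR 0.000537), while the activator Plat fell from 145 to 48.8 FPM (log2 fold change −1.59, SE 0.11, edgeR FDR 6.36e-07) and the inhibitor Serpine2 from 55.6 to 5.33 FPM (log2 fold change −3.41, SE 0.14, edgeR FDR 5.13e-08). In NRK-49F the plasminogen receptor subunits Anxa2 and S100a10 fell, Anxa2 from 2699 to 1089 FPM (log2 fold change −1.33, SE 0.18, edgeR FDR 6.05e-05) and S100a10 from 673 to 237 FPM (log2 fold change −1.52, SE 0.19, edgeR FDR 4.06e-05).

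The list of activation, shedding and clearance holds furin-like activators, ADAM sheddases and proteins that bind MMPs. In NRK-52E 1 of 13 tested genes was called higher and 10 lower, with a median of −1.06, and in NRK-49F 3 of 15 were higher and 7 lower, with a median of −0.20. Cd44, which docks Mmp9 at the cell surface, rose in NRK-52E from 4.17 to 18.5 FPM (log2 fold change 2.13, SE 0.19, edgeR FDR 2.96e-06) and in NRK-49F from 244 to 483 FPM (log2 fold change 0.97, SE 0.09, edgeR FDR 5.51e-06). The membrane-bound MMP inhibitor Reck fell in NRK-52E from 65.9 to 13.2 FPM (log2 fold change −2.33, SE 0.17, edgeR FDR 1.04e-06). Lcn2, which binds Mmp9, fell in NRK-52E from 8.05 to 2.40 FPM (log2 fold change −1.76, SE 0.19, edgeR FDR 1.41e-05) and in NRK-49F from 54.5 to 6.53 FPM (log2 fold change −3.08, SE 0.21, edgeR FDR 4.03e-07). The convertase Furin rose in NRK-49F from 170.1 to 302 FPM (log2 fold change 0.81, SE 0.14, edgeR FDR 0.000427), and the protease trap A2m fell there from 1.64 to 0.325 FPM (log2 fold change −2.35, SE 0.35, edgeR FDR 0.000133).

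Of the substrates, none of 8 tested genes was called higher in NRK-52E and 6 were lower, with a median of −1.61, and in NRK-49F 1 of 10 was higher and 4 lower, with a median of −0.73. Tenascin gene Tnc fell in NRK-52E from 2.43 to 0.494 FPM (log2 fold change −2.28, SE 0.29, edgeR FDR 4.37e-05) and in NRK-49F from 99.5 to 24.1 FPM (log2 fold change −2.07, SE 0.27, edgeR FDR 6.11e-05). Fibrillin gene Fbn1 fell in NRK-52E from 1.97 to 0.264 FPM (log2 fold change −2.87, SE 0.44, edgeR FDR 0.000162). In NRK-49F, Ltbp1, which holds latent TGF-β in the matrix, fell from 206 to 29.5 FPM (log2 fold change −2.82, SE 0.23, edgeR FDR 1.62e-06), and the osteopontin gene Spp1 rose from 4788 to 9061 FPM (log2 fold change 0.90, SE 0.14, edgeR FDR 0.000213).

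The transcription factors listed are AP-1, ETS, RUNX and NF-κB genes known to act on MMP promoters. In NRK-52E 4 of 13 tested were called higher and 4 lower, with a median of −0.16, and in NRK-49F 3 of 13 were higher and 1 lower, with a median of 0.01. Runx2 rose in NRK-52E from 3.79 to 10.7 FPM (log2 fold change 1.47, SE 0.23, edgeR FDR 2e-04) and fell in NRK-49F from 35.5 to 26.0 FPM (log2 fold change −0.46, SE 0.11, edgeR FDR 0.00452). The AP-1 gene Jund rose in NRK-52E from 151 to 389 FPM (log2 fold change 1.35, SE 0.15, edgeR FDR 1.45e-05), while Junb fell there from 163 to 68.8 FPM (log2 fold change −1.27, SE 0.12, edgeR FDR 4.6e-06). Fosl2 fell in NRK-52E from 32.8 to 18.8 FPM (log2 fold change −0.83, SE 0.17, edgeR FDR 0.00153) and rose in NRK-49F from 6.77 to 16.46 FPM (log2 fold change 1.26, SE 0.21, edgeR FDR 0.000331). Fosl1 rose in NRK-49F from 34.2 to 146 FPM (log2 fold change 2.08, SE 0.12, edgeR FDR 1.68e-07).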

How the data were processed

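The authors made the counts: read pairs were aligned to the rat genome rn6 and assigned to Ensembl genes with featureCounts, with fragments that map to several places counted at each, as deposited. The submitters' processing notes name HISAT2 2.1.0, whereas the paper names another aligner. Here edgeR 4.0.16 (quasi-likelihood test, TMM factors, filterByExpr) and DESeq2 1.42.0 in R 4.3.3 were fitted to all genes, within each line for pH, within each pH for the line, and to all 16 libraries for the interaction. The procedure was tested on simulated data. Changes were simulated only in genes with more counts, so the test does not cover members with few. Members and lists were chosen with earlier results of these data known.

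Members with a value in every library were chosen by rule: TIMP genes with at least 1 FPM in a group mean, members with at least 10 FPM in their highest group, and members called in a pH comparison whose higher group averaged at least 3 FPM. From each list, called genes with up to 2 largest rises and 2 largest falls in each pH comparison were named, and 1 gene is not reported here. Alternatives were other size factors, library totals alone, no filter or a stricter one, FDR below 0.05, each tool alone, column number as a covariate, 1 fit to all libraries, fits within a column number, and leaving out each library.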

Additional observations from a re-analysis of the deposited data

Results flagged for a closer look

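In each of 84 combinations of a described gene and a group, the highest and lowest library were compared with the rest by Dixon's gap ratio. In 3 the ratio passed the 95% critical value for 4 samples, where chance flags about 1 in 20 groups, or 4.2 of 84. Mmp9 in NRK-49F at pH 6.0 read 28.6 FPM in N16, above 19.6 to 20.8 FPM in the other libraries. Mmp24 in NRK-52E at pH 6.0 read 10.53 FPM in N8, above 4.04 to 4.90 FPM. Adamts2 in NRK-52E at pH 7.4 read 75.3 FPM in N6, below 83.2 to 84.6 FPM.

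The interaction of line and pH passed an FDR below 0.01 in edgeR for 13 described genes. Values are the log2 effect in NRK-52E minus that in NRK-49F. It was more positive in NRK-52E for Adamtsl2, with 6.67, for Mmp9, with 1.41, for Adamtsl4, with 0.82, and for Timp1, with 0.76. Among the MMPs it was more negative for Mmp19, with −2.21, and for Mmp24, with −1.05. Among ADAMTS and ADAMTS-like genes it was more negative for Adamtsl3, with −4.21, Adamts17, with −3.63, Adamts12, with −2.98, Adamts1, with −2.19, Adamts4, with −1.90, Adamts7, with −1.44, and Adamts10, with −1.07. For 4 of the 13 the filter left no test of pH in 1 line, NRK-52E for Mmp9 and Adamts12 and NRK-49F for Adamts17 and Adamtsl3, so their values rest on few counts there. The call ended in 12 of 16 single omissions for Mmp9, 12 for Timp1 and 14 for Mmp24. It also ended with library totals alone for Mmp9 and Timp1, with DESeq2 size factors for Timp1, and with column number as a covariate for Mmp24 and Timp1. The causes were not tested.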

How the results depend on the processing

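The count of members called kept within 1.5 times its value in all 5 comparisons under other size factors, library totals alone, both filters, FDR below 0.05, each tool alone and column number as a covariate, and when any single library was left out. With 1 library left out, members called ranged from 16 to 18 in NRK-52E and 13 to 15 in NRK-49F. Within column number 22, where each group has 2 libraries, 11 members and 2820 of all genes were called in NRK-52E, in place of 17 and 7793. Within 21, 1980 of all genes were called in NRK-49F, in place of 5039.

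No called gene among those described turned its direction under any alternative run. Of 16 described genes called in NRK-52E, 10 kept their call throughout, and of 14 in NRK-49F, 10 did. The other 6 in NRK-52E, Mmp2, Mmp15, Mmp24, Adamts3, Timp2 and Timp3, lost it only within a column number, as did Adamts7, Adamtsl2 and Timp2 in NRK-49F, where Adamts4 lost it under other alternatives too. The interaction calls of Mmp9, Mmp24 and Timp1 were lost in most single omissions and under 1 or more other alternatives.

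Directions turned for genes that were not called, and the cause was not tested. In NRK-49F, the log2 fold change within column number 21 was 0.35 for Mmp10, 0.18 for Mmp19 and 0.14 for Timp3, and within 20 it was −0.53 for Adamts1 and −0.11 for Adamtsl5. Library totals alone gave 0.0087 for Mmp19 in NRK-49F, 0.27 for Mmp24 between the lines at pH 7.4, −0.094 for the interaction of Mmp14 and −0.10 for that of Timp2. Column number as a covariate gave 0.044 for Mmp24 between the lines at pH 7.4. With 1 library left out, values in NRK-49F ran from −0.79 to 0.14 for Mmp10, −0.19 to 0.069 for Mmp19, −0.046 to 0.47 for Adamts1 and −0.080 to 0.14 for Adamtsl5. They ran from −0.11 to 0.014 for Mmp24 between the lines at pH 7.4, and for the interaction from −0.16 to 0.062 for Mmp2 and −0.076 to 0.30 for Mmp14. Counts limit the genes at 1 to 6 counts a library, whose folds are imprecise.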
